A study of Mus musculus with 8 samples.

Results

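The genes described here encode 9 proteins of inflammation, the serum amyloid A genes Saa2, Saa3 and Saa4, haptoglobin (Hp), Lrg1, Lcn2, Wfdc21, S100a8 and S100a9. They were picked by symbol, and all 9 were found among the 1329 genes of the deposited table. The tissue was the ascending aorta of Fbn1mgR/mgR mice, in which the gene for fibrillin-1, the main microfibril protein, is underexpressed as a model of Marfan syndrome. One group of 4 libraries came from mice given DT-061, a small-molecule activator of protein phosphatase 2A, by mouth at 5 mg/kg 2 times a day for 4 weeks from 5 weeks of age. The other 4 libraries came from mice of the same genotype and schedule given the vehicle solution of N,N-dimethylacetamide, Kolliphor HS-15 and water. Both groups therefore carry the Fbn1 mutation, and no mice without it were analysed here. The labels state neither sex nor whether each library is a separate mouse, so the p-values describe only how far these samples spread, part of which may be technical. The question put to the data is what DT-061 does to gene expression in the diseased wall.

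Acute phase proteins are plasma proteins that the liver makes in larger amounts during inflammation, mainly under the cytokines interleukin-6 and interleukin-1. Several of them are also made outside the liver: in the mouse, Saa3 and Lcn2 are induced in macrophages, fat and epithelia, and haptoglobin is made in adipose tissue. S100a8 and S100a9 pair as calprotectin, the most abundant cytosolic protein of neutrophils, and are made by monocytes as well. C/EBP, STAT3 and NF-κB are the transcription factors best known for inducing acute phase genes.

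The serum amyloid genes lie together on chromosome 7 (GRCm38, GENCODE M21 annotation). Saa3 spans 46711998 to 46715700 on the minus strand. Saa4 starts 12.3 kb after it, at 46727998, and ends at 46732603, also on the minus strand. Saa2 follows 19.2 kb later on the plus strand, 46751790 to 46754313. S100a8 (90668978 to 90670035, plus strand) and S100a9 (90692632 to 90695721, minus strand) are 22.6 kb apart on chromosome 3. Hp is on chromosome 8 (109575128 to 109579172, minus), Lcn2 on chromosome 2 (32384633 to 32388252, minus), Lrg1 on chromosome 17 (56119678 to 56122001, minus) and Wfdc21 on chromosome 11 (83746940 to 83752642, plus). All 9 are protein coding genes.

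Because C/EBP factors are the textbook inducers of this family, promoters were searched for their core motif. The RefSeq promoter table (GRCm38.p6) had an entry for 7 of the 9 members. In the 250 bases before the start, TTGCNNAA or its other strand TTNNGCAA occurred in 5 of these 7 promoters, those of Lcn2, S100a9, Saa2, Saa3 and Saa4. It occurred in 9.56% of all 32851 promoters of that length. The STAT motif TTCNNNGAA was in 0 of the 7 and in 7.02% of all promoters. The NF-κB consensus, searched on both strands, was likewise in 0 of the 7 and in 3.90% of all promoters. These matches describe letters in a window and were not tested as binding sites, and genes of one cluster share ancestry. The window of Lcn2 begins within an annotated exon of that gene and is not shown. Its match, beginning 216 bases before the RefSeq start, is counted among the 5.

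The upstream sequences of 4 members with a match follow, to show where it stands, with the motif in capitals, 5′ to 3′ on the strand of the gene, ending before the first base of any GENCODE M21 exon of a member. The windows are chr7:46751583-46751789 (plus) for Saa2, chr7:46715701-46715926 (minus) for Saa3, chr7:46732604-46732853 (minus) for Saa4 and chr3:90695722-90695971 (minus) for S100a9.
Saa2: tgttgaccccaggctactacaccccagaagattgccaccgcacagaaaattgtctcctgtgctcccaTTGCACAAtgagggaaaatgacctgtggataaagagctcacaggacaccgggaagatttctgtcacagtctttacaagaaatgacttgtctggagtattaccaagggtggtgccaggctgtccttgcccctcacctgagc
Saa3: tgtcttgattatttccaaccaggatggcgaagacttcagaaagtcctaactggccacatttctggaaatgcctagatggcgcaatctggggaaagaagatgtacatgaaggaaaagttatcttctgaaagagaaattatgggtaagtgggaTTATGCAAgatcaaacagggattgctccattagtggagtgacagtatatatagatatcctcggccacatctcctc
Saa4: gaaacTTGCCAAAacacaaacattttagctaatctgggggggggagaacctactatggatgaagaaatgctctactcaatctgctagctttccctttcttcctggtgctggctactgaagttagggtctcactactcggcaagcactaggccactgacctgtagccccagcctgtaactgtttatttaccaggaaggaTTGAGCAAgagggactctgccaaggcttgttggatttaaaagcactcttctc
S100a9: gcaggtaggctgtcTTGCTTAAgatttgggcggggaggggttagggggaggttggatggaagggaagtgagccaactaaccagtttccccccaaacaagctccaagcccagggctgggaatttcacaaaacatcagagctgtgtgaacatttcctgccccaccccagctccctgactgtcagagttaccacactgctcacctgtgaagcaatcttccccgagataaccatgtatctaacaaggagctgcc
The motif begins 183 bases before the RefSeq start in Saa2, 99 bases before it in Saa3 and 236 bases before it in S100a9. Saa4 holds 2 copies, beginning 245 and 52 bases before the start.

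All 9 genes were lower in the DT-061 aortas. Saa3 had the largest change, with a mean 33.0-fold lower, followed on the log2 scale by Hp, Wfdc21, Lcn2 and Lrg1, and then by S100a9, S100a8, Saa2 and Saa4. The values are FPKM, fragments scaled to gene length and library total. A log2 change is the difference between group means of log2(FPKM + 1), DT-061 minus vehicle, and for low genes it is smaller than the true one. By limma with Benjamini-Hochberg adjustment over the 1329 genes, all 9 passed at an adjusted p under 0.05. The deposited table had been reduced by the submitters to genes significant between these same groups, so 95.4% of it passed, 65% of it on the lower side, and the count of 9 adds nothing to that choice. The median log2 change of the 9 genes was -2.44, against -0.58 over the whole table, which also holds 435 genes that were higher with DT-061.

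**Figure D1:**
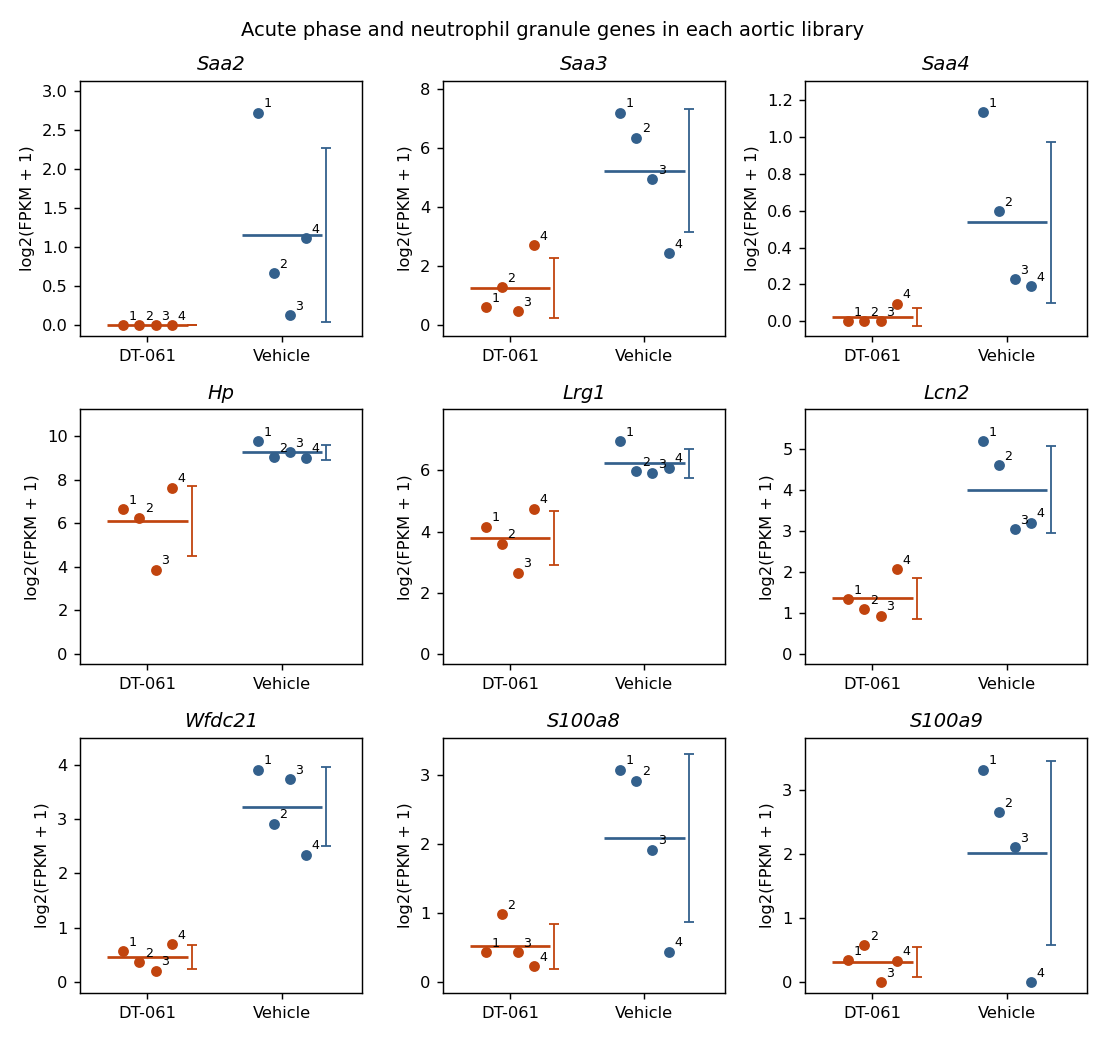
Expression of the 9 genes in each library as log2(FPKM + 1), with DT-061 left and vehicle right. Points are libraries with their replicate number, horizontal lines are group means and error bars are SD (n = 4 each). Vehicle library 1 is the highest library for all 9 genes, and vehicle library 4 lies among the DT-061 libraries for Saa3, S100a8 and S100a9.

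In 6 of the 9 genes, the 4 DT-061 values all lay below the 4 vehicle values. For Saa2 and Saa4 that separation rests on very few fragments and is not secure. By the recovered fragments, Saa2 had 0 in every DT-061 library and 1 in vehicle library 3. Saa4 had 2 in DT-061 library 4 and 4 in vehicle library 4. Over the whole table the groups did not overlap in 78.3% of genes, and did so on the lower side in 48.2%. The 3 genes that overlapped were Saa3, S100a8 and S100a9, and in each it was vehicle library 4 that reached into the DT-061 range. Without that library the groups did not overlap in 9 of 9 genes, against 96.2% of the table.

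Haptoglobin, the plasma protein that binds free haemoglobin, was by far the most abundant of the 9. It had 99.2, 75.3, 13.7 and 198 FPKM in DT-061 libraries 1 to 4, against 874, 525, 618 and 518 FPKM in vehicle libraries 1 to 4. DT-061 library 3 stood apart as the lowest, and every DT-061 value lay below every vehicle value. The means were 96.6 ± 76.8 and 634 ± 166 FPKM (SD, n = 4 each), 6.56-fold lower with DT-061, and the log2 change was -3.17 ± 0.71 (SE; by limma, adjusted p = 0.016). The means differed 10.1-fold without DT-061 library 4 and 5.1-fold without DT-061 library 3. Hp made up 65.8% to 84.8% of the summed FPKM of the 9 genes in the DT-061 libraries and 72.0% to 85.8% in the vehicle libraries. That sum was 20.8 to 234 FPKM with DT-061 and 604 to 1213 FPKM with vehicle.

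Saa3 is the serum amyloid A gene that mice express mainly outside the liver. It had 0.525, 1.45, 0.389 and 5.50 FPKM in DT-061 libraries 1 to 4, against 144, 80.7, 29.7 and 4.40 FPKM in vehicle libraries 1 to 4. The 2 groups overlapped, because vehicle library 4 lay below DT-061 library 4. The means were 1.97 ± 2.40 and 64.8 ± 61.8 FPKM (SD, n = 4 each), and the log2 change was -3.96 ± 1.01 (SE; by limma, adjusted p = 0.017). The change was the fifth lowest of the 1329 genes. The fold between the means was 82.4 without DT-061 library 4 and 19.5 without vehicle library 1. From the steps between low FPKM values, Saa3 had, at the fewest, 4, 12, 3 and 43 fragments in DT-061 libraries 1 to 4. On the same basis it had 1241, 951, 276 and 33 fragments in vehicle libraries 1 to 4. The DT-061 mean thus rests on few fragments outside library 4, and the 82.4-fold value does so throughout. Leaving out any 1 library kept the call, with a log2 change between -4.89, without vehicle library 4, and -3.31, without vehicle library 1 (limma adjusted p of 0.0026 to 0.040).

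Saa2 is one of the acute phase serum amyloid genes that the liver releases into plasma. It was listed at 0 in all 4 DT-061 libraries and had 5.57, 0.591, 0.0938 and 1.16 FPKM in vehicle libraries 1 to 4. From the steps between low FPKM values, the vehicle values correspond to 55, 8, 1 and 10 fragments, the fewest that the steps allow. On these numbers the gene rests on few reads and mainly on vehicle library 1. A count of 0 allows up to 3 fragments, or 0.315 to 0.342 FPKM in the DT-061 libraries. Set against that limit in each library, the DT-061 mean was at least 5.58-fold lower than the vehicle mean of 1.85 ± 2.52 FPKM (SD, n = 4). That bound takes the vehicle mean as it stands. Vehicle library 1, at 5.57 FPKM, sets most of that mean, so the bound would be smaller without it. The fitted log2 change of -1.16 ± 0.49 (SE; by limma, adjusted p = 0.048) depends on the pseudocount. It was -0.64 without vehicle library 1. The call was lost when any 1 DT-061 library, or vehicle library 2 or 4, was left out (limma adjusted p of 0.055 to 0.090). Transcripts of Saa2 share an identical run of 179 bases with those of its neighbour Saa1, which was not analysed here, so reads of the pair may have been split.

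Saa4, a serum amyloid gene expressed at steady levels in liver and little changed by inflammation, was the least abundant of the 9. It was listed at 0 in DT-061 libraries 1, 2 and 3 and had 0.0674 FPKM in DT-061 library 4, against 1.20, 0.514, 0.170 and 0.141 FPKM in vehicle libraries 1 to 4. These values correspond to 0, 0, 0 and 2 fragments with DT-061 and to 39, 23, 6 and 4 with vehicle. Per library total, that was 30.4-fold fewer with DT-061, with an exact 95% interval of 8.13 to 256 that covers counting error only. The fold between mean FPKM values was 16.3 without vehicle library 1 and 37.2 without vehicle library 4. The log2 change was -0.51 ± 0.20 (SE; by limma, adjusted p = 0.036), close to the median of the table, and it was -0.31 without vehicle library 1. The call was lost without any 1 DT-061 library or without vehicle library 2 (limma adjusted p of 0.058 to 0.074).

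Lrg1 encodes a leucine-rich glycoprotein of plasma and of neutrophil granules that takes part in TGF-β signalling in endothelial cells. It had 16.8, 11.1, 5.30 and 25.8 FPKM in DT-061 libraries 1 to 4, against 123, 61.6, 59.5 and 67.3 FPKM in vehicle libraries 1 to 4. Its vehicle libraries 2, 3 and 4 lay between 59.5 and 67.3 FPKM, and library 1 lay far above them. The means were 14.8 ± 8.75 and 77.8 ± 30.2 FPKM (SD, n = 4 each), 5.27-fold lower with DT-061, with a log2 change of -2.44 ± 0.44 (SE; by limma, adjusted p = 0.013).

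Lcn2 encodes lipocalin 2, which binds bacterial siderophores and is stored in the specific granules of neutrophils. It had 1.52, 1.12, 0.903 and 3.16 FPKM in DT-061 libraries 1 to 4, against 35.2, 23.3, 7.21 and 8.14 FPKM in vehicle libraries 1 to 4. Vehicle libraries 1 and 2 were the high ones, and every vehicle value was above every DT-061 value. The means were 1.68 ± 1.02 and 18.5 ± 13.4 FPKM (SD, n = 4 each), 11.0-fold lower with DT-061, with a log2 change of -2.65 ± 0.51 (SE; by limma, adjusted p = 0.014). Slc22a17, which encodes a proposed lipocalin 2 receptor, rose by 0.70 ± 0.26 (SE; by limma, adjusted p = 0.032). It had 18.6, 18.4, 42.6 and 19.0 FPKM in DT-061 libraries 1 to 4 and 13.1 to 15.1 FPKM with vehicle. Without DT-061 library 3 that change was 0.41, and without vehicle library 1, 2 or 3 the call was lost (limma adjusted p of 0.062 to 0.066). Of the 26 receptors and partners of these proteins on the list, Slc22a17 was the 1 gene in the table.

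Wfdc21 encodes a small secreted protein of the whey acidic protein family. It had 0.481, 0.295, 0.159 and 0.626 FPKM in DT-061 libraries 1 to 4, against 14.0, 6.54, 12.3 and 4.08 FPKM in vehicle libraries 1 to 4. The recovered fragments were 3, 2, 1 and 4 with DT-061 and 98, 63, 93 and 25 with vehicle, so the DT-061 levels were near the limit of detection. The means were 0.390 ± 0.205 and 9.21 ± 4.66 FPKM (SD, n = 4 each), 23.6-fold lower with DT-061. The log2 change was -2.76 ± 0.35 (SE; by limma, adjusted p = 0.012), and the lowest adjusted p of the 9 genes was that of Wfdc21.

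S100a8 and S100a9, the calprotectin pair, stayed under 1 FPKM in all DT-061 libraries and in vehicle library 4. S100a8 had 0.355, 0.979, 0.352 and 0.173 FPKM in DT-061 libraries 1 to 4, against 7.41, 6.55, 2.77 and 0.361 FPKM in vehicle libraries 1 to 4. S100a9 had 0.268, 0.493, 0 and 0.262 FPKM with DT-061, against 8.93, 5.29, 3.31 and 0 FPKM with vehicle. Both were high in vehicle libraries 1, 2 and 3 and not in vehicle library 4. The pair rests on 11 and 8 fragments over the 4 DT-061 libraries and on 125 and 166 over the 4 vehicle libraries, with 2 and 0 fragments in vehicle library 4. A count of 0 there allows up to 0.409 FPKM of S100a9. The log2 change was -1.57 ± 0.56 for S100a8 and -1.70 ± 0.64 for S100a9 (SE, n = 4 each; limma adjusted p = 0.028 and 0.033). Their ratio, S100a9 to S100a8, was 0.504 to 1.51 in the 3 DT-061 libraries where both were above 0 and 0.808 to 1.21 in the 3 such vehicle libraries.

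Both calprotectin calls lay near the threshold, and leaving out most single libraries lost them. Without vehicle library 4, the log2 change was -2.11 for S100a8 and -2.38 for S100a9 (limma adjusted p = 0.0035 and 0.0022). The call of S100a8 was lost when DT-061 library 1, 3 or 4, or any of vehicle libraries 1 to 3, was left out (limma adjusted p of 0.053 to 0.070). That of S100a9 was lost without any 1 library except vehicle library 4 (0.053 to 0.079). An exact two-sided permutation test over the 8 libraries gave p = 0.0571 for S100a8 and for Saa3, and p = 0.143 for S100a9. For the other 6 genes the exact permutation p was 0.0286, the smallest that 4 against 4 libraries allow. For Saa2 and Saa4 that value rests on very few fragments in the lowest vehicle library. These p-values are unadjusted.

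Vehicle library 4 stood at different levels among the 9 genes. Its FPKM was 82.7% of the mean of vehicle libraries 1 to 3 for Lrg1 and 77.1% for Hp. It was 55.7% for Saa2, 37.4% for Wfdc21, 37.2% for Lcn2 and 22.4% for Saa4. It was 6.48% for S100a8, 5.18% for Saa3 and 0% for S100a9. The median over the 894 genes that were lower with DT-061 was 52.3%. Of those 894 genes, 31 had a smaller share than Saa3, 44 a smaller share than S100a8 and 646 a smaller share than Hp. The same library had 1.10 FPKM of Csf3r, the receptor for the neutrophil growth factor G-CSF, against 2.66 to 8.45 FPKM in the other vehicle libraries.

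**Figure D2:**
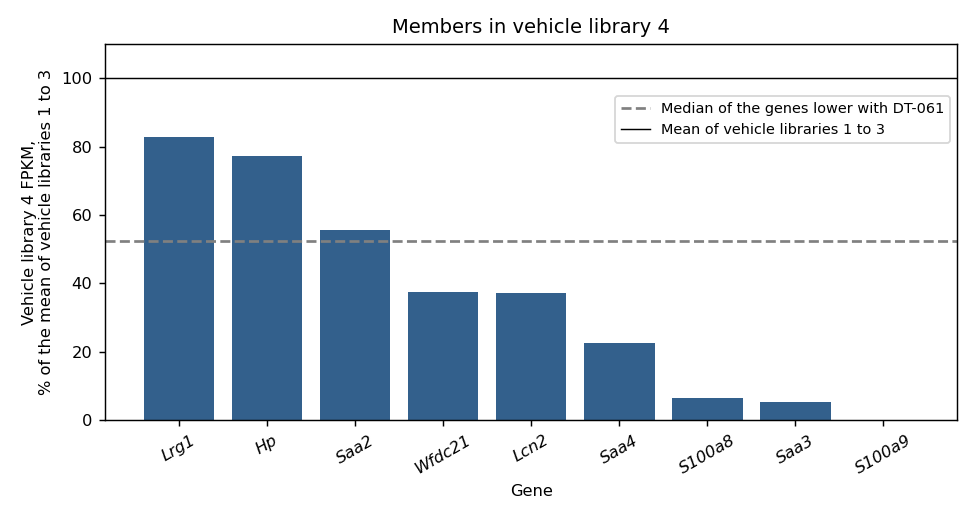
FPKM of the 9 genes in vehicle library 4 as a percentage of their mean in vehicle libraries 1 to 3, one bar per gene. Lrg1 and Hp stand at 82.7% and 77.1%, whereas S100a8, Saa3 and S100a9 stand at 6.48%, 5.18% and 0%, to either side of the 52.3% median of the 894 genes lower with DT-061 (dashed line).

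Within the DT-061 group, library 4 was the highest library for 6 of the 8 genes with a single highest value, namely Saa3, Saa4, Hp, Lrg1, Lcn2 and Wfdc21, and library 2 was highest for S100a8 and S100a9. Library 4 was highest in 42.9% and library 2 in 35.4% of the genes lower with DT-061. Library 3 was the lowest DT-061 library for 6 of the 7 genes with a single lowest value, against 75.2% of the lower genes, a share near that background. Vehicle library 1 was the highest vehicle library for 9 of 9, against 74.9% of the lower genes. No test was made of these orders.

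Acute phase genes outside the 9 were lower too. Of 37 on a list of other acute phase genes, 11 were in the table and all 11 fell, 10 of them with groups that did not overlap, in a table chosen on this comparison where 95.4% of genes passed and 78.3% did not overlap. Their median log2 change was -1.50. All 11 stayed lower under both other scalings, and 9 passed with median rescaling and 5 with quantile normalization. The serine protease inhibitor gene Serpina3n had 50.3 ± 25.9 FPKM with DT-061 and 215 ± 87.4 FPKM with vehicle (SD, n = 4 each), a log2 change of -2.18 ± 0.50 (SE; by limma, adjusted p = 0.016). The complement gene C4b was 4.15-fold lower and Serpina3g 7.02-fold lower, the second ranging between 4.57-fold without vehicle library 1 and 10.8-fold without DT-061 library 4. Lbp, which encodes the plasma protein that hands bacterial lipopolysaccharide to its receptor, had 11.0 ± 4.18 and 38.4 ± 9.92 FPKM, a log2 change of -1.77 ± 0.33 (limma adjusted p = 0.014). Reads of the near-identical Serpina3 genes may have been split between them, which leaves the value of each uncertain.

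Of 37 cytokine-route inducers and regulators of the acute phase response listed, 8 were in the table and all 8 fell, with a median log2 change of -1.07 and with groups that did not overlap in 4, a share near the 48.2% of the whole table on the lower side. Since 95.4% of the table passed, the count of 8 adds nothing to the way the table was chosen. The number that passed was 4 with median rescaling, 3 with quantile normalization and 5 when DT-061 library 1 or 3, or vehicle library 2, was left out. The direction turned for Nfkb2 with median rescaling (0.30) and for Tnf with quantile normalization (0.10). Il6, the interleukin-6 gene, had 0.128, 0.294, 0.0634 and 0.563 FPKM in DT-061 libraries 1 to 4, against 3.47, 3.23, 0.369 and 0.977 FPKM in vehicle libraries 1 to 4. Its log2 change was -1.10 ± 0.39 (SE; by limma, adjusted p = 0.028), and its call was lost when any of DT-061 libraries 1 to 3, or vehicle library 1 or 2, was left out (0.052 to 0.068). Socs3, a STAT3 target that feeds back on interleukin-6 signalling, had 6.05 ± 2.96 FPKM with DT-061 and 22.6 ± 7.86 FPKM with vehicle, 3.73-fold lower (limma adjusted p = 0.015). Bcl3, an NF-κB cofactor, was 3.72-fold lower and the interleukin-1 receptor antagonist gene Il1rn 5.95-fold lower, the last losing its call when DT-061 library 1 or 3 or vehicle library 2 was left out (limma adjusted p of 0.050 to 0.055). Without DT-061 library 4, Il1rn was 11.9-fold lower, and without vehicle library 1 it was 4.1-fold lower. Vehicle library 4 had 98.2% of the mean of the other vehicle libraries for Socs3 and 41.5% for Il6.

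**Figure D3:**
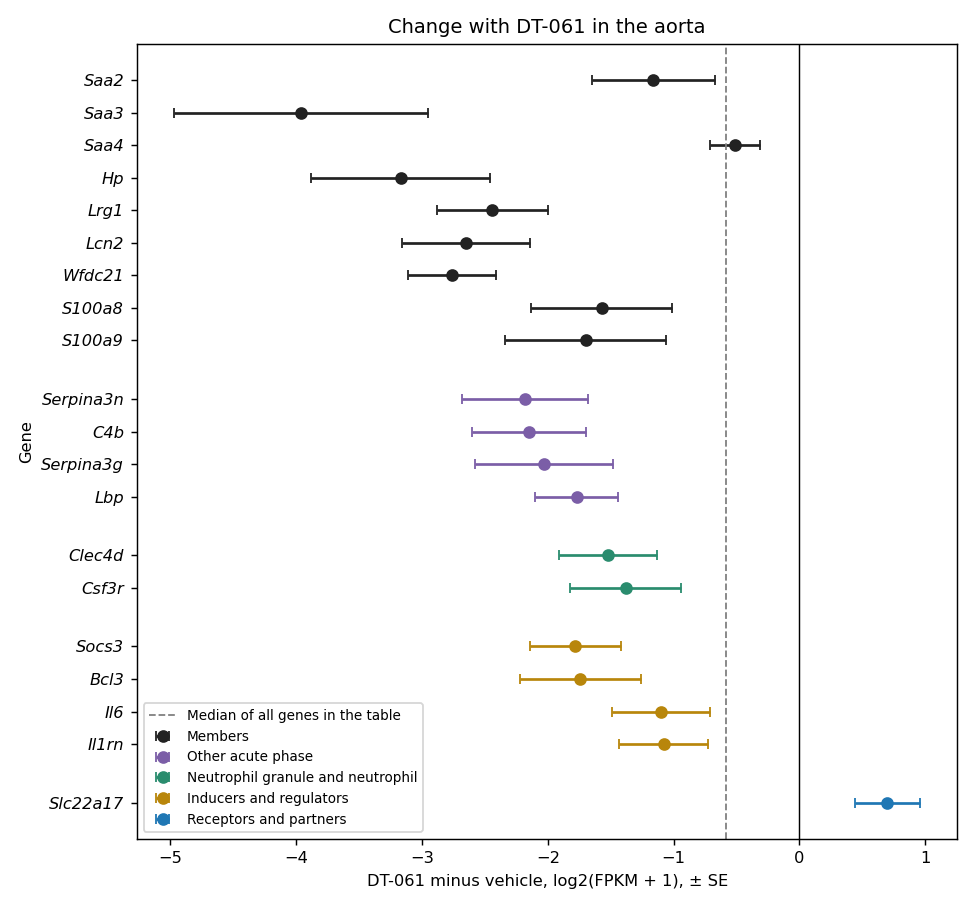
Change with DT-061 for the 9 genes (Members) and for named genes of the related lists, as the difference of mean log2(FPKM + 1), DT-061 minus vehicle, with SE (n = 4 each). All but Slc22a17 lie below 0, and 8 of the 9 members lie below the median of all genes in the table, -0.58 (dashed line), Saa4 being the exception.

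Of 43 neutrophil granule and neutrophil genes listed, 6 were in the table and all 6 fell, with a median log2 change of -1.13, and the groups did not overlap in 5, against 95.4% of the table past the threshold and 78.3% without overlap. All 6 stayed lower under both other scalings, but 1 passed with quantile normalization, 3 passed without DT-061 library 3 or vehicle library 2, and 4 passed without DT-061 library 1, 2 or 4. Csf3r had 0.752 ± 0.362 FPKM with DT-061 and 4.20 ± 3.17 FPKM with vehicle (SD, n = 4 each), a log2 change of -1.38 ± 0.44 (SE; by limma, adjusted p = 0.022). Its call was lost when DT-061 library 3 or vehicle library 2 was left out (adjusted p of 0.053 and 0.050). Csf3r was 5.59-fold lower, and 3.71-fold lower with vehicle library 1 left out. The lectin receptor gene Clec4d was 5.87-fold lower. Prtn3, which encodes the neutrophil granule protease proteinase 3 and was chosen after its values were seen, had 0.0679, 0.0624, 0 and 0.199 FPKM in DT-061 libraries 1 to 4 and 1.63, 1.27, 1.45 and 1.52 FPKM in vehicle libraries 1 to 4. Its level in vehicle library 4 was within the range of the other vehicle libraries. In the same list, vehicle library 4 had 21% of the mean of the other vehicle libraries for Csf3r and 33.8% for Clec4d, and the summed FPKM of the 6 genes was 4.82 there against 8.87 to 21.9 in the other vehicle libraries. The granule and surface genes Mpo, Elane, Ngp, Camp, Ltf, Mmp8 and Ly6g, which define neutrophils, were not analysed here, so the label of a neutrophil origin could not be checked with them. In bulk tissue, fewer cells of a type and less RNA per cell cannot be told apart.

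The few markers of monocytes, fat cells, hepatocytes and fibroblasts that were in the table were lower as deposited, though not under every scaling. Of 12 monocyte and macrophage markers, 3 were in the table (Mpeg1, Plac8 and Ly6c2), and all 3 fell. As 95.4% of the table passed, and 65% passed on the lower side, counts of markers past the threshold say little by themselves. This holds for each cell type given here. Ly6c2 lost its call when any 1 DT-061 library, or vehicle library 2 or 3, was left out (limma adjusted p of 0.052 to 0.063). Their summed level was 2.97 to 15.4 FPKM with DT-061 and 17.2 to 111 FPKM with vehicle, with the lowest vehicle value in library 4. Of 11 adipocyte markers, Cfd and Retn were in the table and both fell, with a summed level of 74.1 to 335 FPKM with DT-061 and 498 to 1417 FPKM with vehicle. Cfd encodes adipsin, and in the mouse Retn encodes a hormone of fat cells. Of 8 hepatocyte markers, only Apoa1 was in the table, chosen after its values were seen, at 0.0820 ± 0.0342 FPKM with DT-061 and 0.566 ± 0.118 FPKM with vehicle, and its log2 change of -0.53 was 0.02 with quantile normalization. Of 6 fibroblast markers, only Lum was in the table, 1.76-fold lower as deposited and turning to a log2 change of 0.05 when libraries were rescaled to one median. All 6 smooth muscle markers rose, with a summed level of 15310 to 22968 FPKM in the DT-061 libraries and 8382 to 13257 FPKM in the vehicle libraries, the levels that mark this tissue. With quantile normalization 4 of these 6 passed, and Acta2 and Tagln did not. None of the 5 endothelial and 5 erythroid markers was analysed here. The part of these cell types in the changes of the 9 genes was not tested.

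**Figure D4:**
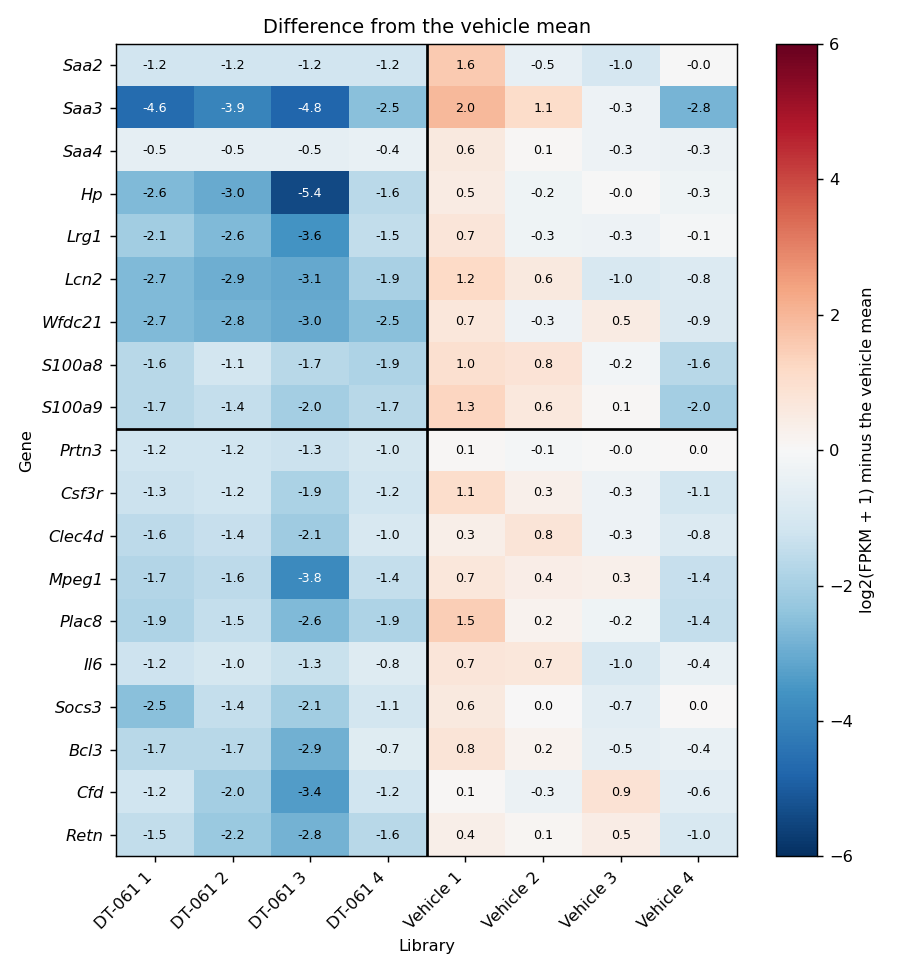
Each gene's log2(FPKM + 1) in each library less its vehicle mean, with DT-061 libraries left of the line, the 9 genes above it and related genes below. Hp is lowest in DT-061 library 3, and Saa3, S100a8 and S100a9 share low values in vehicle library 4 with Csf3r, Mpeg1 and Plac8, whereas Hp, Lrg1, Prtn3 and Socs3 do not.

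Likeness of pattern was measured as the root mean square distance between log2(FPKM + 1) profiles over the 8 libraries, each taken less the gene's vehicle mean, so that it reflects the size of the change as well as its shape. Among 1094 genes with a mean of at least 1 FPKM, the nearest to Saa3 were 3 immunoglobulin variable genes, with Ighv1-81 the closest, at distances of 0.67, 0.72 and 0.79 against a median of 2.72. Their means with DT-061 were 0.0484, 0.139 and 0.239 FPKM, so they met the minimum of 1 FPKM only through their vehicle levels. In the DT-061 libraries their likeness to Saa3 is therefore largely one of low values. In vehicle library 4 they had 3.49%, 3.39% and 7.90% of the mean of the other vehicle libraries. Such genes are near copies of each other, which leaves the value of each uncertain. The nearest to S100a8 were Nkg7, a cytotoxic granule gene of T and NK cells, Sema4d, a semaphorin of lymphocytes, and the class I gene H2-Q7, at 0.34, 0.35 and 0.36 against a median of 1.04. Nkg7, with a mean of 0.191 FPKM with DT-061, also met the minimum only through its vehicle level. Sema4d lost its call with any 1 library left out but vehicle library 4 (limma adjusted p of 0.053 to 0.077). The partner gene S100a9 was closer, at 0.28. Among the 9 genes, the nearest to Saa3 was Lcn2, at 1.29, and Hp and Lrg1 stood at 1.44 and 1.63.

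The direction of the 9 genes held under both other scalings. Rescaling each library to the same median over the table shifted the changes of all genes by a median of 0.68, and quantile normalization by 0.56. All 9 genes stayed lower, with a median change of -1.64 after the first and -2.01 after the second. For the whole table, with its higher genes included, the medians were -0.13 and 0.06. With quantile normalization, Saa2, Saa4, S100a8 and S100a9 lost their calls (limma adjusted p = 0.096, 0.29, 0.22 and 0.12). Saa3, Hp, Lcn2, Lrg1 and Wfdc21 kept theirs under both scalings, with log2 changes of -3.35, -2.33, -2.0, -1.64 and -2.27 with the first and -3.41, -3.13, -2.01, -2.18 and -2.04 with the second.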

How the data were processed

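Poly-A RNA of the ascending aorta was sequenced, per the labels' protocols, on an Illumina NovaSeq with paired 150-base reads. The submitters' processing notes name the mm10 build and, with no role or order, featureCounts 1.5.0-p3, HISAT2 2.0.5 and StringTie 1.3.3b. The authors deposited FPKM, per the file headers, for the genes that they had found significant between the groups, per the table's name. The tool and threshold of that choice, the fragment total behind FPKM and the use of strand in counting are not given in the sources read. Overlapping and antisense genes therefore may share reads. Because the genes were selected on this comparison, no p-value here is independent evidence.

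Symbols came from a table of gene names (1328 of 1329 identifiers matched) and coordinates from GENCODE M21 (GRCm38, which is mm10). In R 4.3.3, limma 3.58.1 (trend, robust) was run on log2(FPKM + 1) of all 1329 genes with the treatment as its only term, with Benjamini-Hochberg adjustment and a threshold of 0.05. It was tested on simulated data. Rose and fell mean past this threshold, and folds are ratios of mean FPKM. Library depth came from the spacing of low FPKM values among genes other than the 9, at a tolerance of 0.05 of a fragment and up to 40 fragments. It was 14400000 to 15600000 fragments in the DT-061 libraries and 14100000 to 22200000 in the vehicle libraries. Fragments behind 6 of the members are the fewest that the steps allow. Each rests on the shortest gene length at which the member's own low values came out whole, so whole numbers are no check. That length was 610 bases for Saa2, fixed by 3 values, and 531 bases for Saa3. Their annotated exonic lengths are 2518 and 2606 bases, and a longer length would give more fragments. Intervals and the limit of 3 fragments cover counting error only.

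The members, lists and tests were chosen with earlier results of these data known. All 9 members are named, with up to 4 genes of the largest change and a mean of at least 1 FPKM from each list, and the 3 genes nearest in pattern to Saa3 and to S100a8. Prtn3, Apoa1, Tnf, Nfkb2 and Acta2 fall outside this rule and were chosen after their values were seen. Folds with 1 library left out were added after seeing the data. The NF-κB consensus replaced another form of that motif after a first scan, and neither form matched any of the 7 promoters. Tried as alternatives were median rescaling, quantile normalization, a pseudocount of 0.1, a mean of at least 1 FPKM, plain limma, the replicate number as a block, fewer libraries, and an exact permutation test.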

Additional observations from a re-analysis of the deposited data

Results flagged for a closer look

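Across the members and the other named genes, 71 groups of 4 libraries that were not all equal were checked for a library far from the others, and 8 were marked, by a gap to the nearest library, as a share of the group's range, above the critical value of Dixon's test. Chance marks about 1 in 20. Among the 9 genes, Saa4 was marked in the DT-061 group with a share of 1, since library 4 had 0.0674 FPKM and the others were listed at 0. Lrg1 was marked in the vehicle group, where library 1 had 123 FPKM and the gap was 0.877 of the range. In the DT-061 group, library 3 was lowest for C4b (gap of 0.899 of the range) and for Lbp (0.853), and highest for Myl9 (0.831) and Slc22a17 (0.975). Ighv1-81 was marked in the DT-061 group with a share of 1, with 0.194 FPKM in library 4 and 0 in the others. Ly6c2 was marked in the vehicle group, where library 1 had 15.8 FPKM and the gap was 0.843 of the range.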

How the results depend on the processing

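All 9 genes stayed lower under every alternative that could be computed for them. Saa2 and Saa4 were not in the fit limited to a mean of at least 1 FPKM. Wfdc21, S100a8 and S100a9 entered that fit only through their vehicle levels, so their passing it is no support. The number of the 9 past the threshold was 9 as deposited, 5 with quantile normalization, 8 with a pseudocount of 0.1, where S100a9 missed it (limma adjusted p = 0.079), and 5 to 8 with 1 library left out. The number with groups that did not overlap was 4 with quantile normalization (44.2% of the table) and 6 to 9 with 1 library left out (79.0% to 96.2% of the table). Over the table, 1268 genes passed as deposited (31.9% of them higher), 735 with median rescaling (59.0% higher), 604 with quantile normalization (65.2% higher) and 942 to 1230 with 1 library left out. With the replicate number as a block, 834 genes passed, and 7 of the 9, with Saa2 and Saa4 at a limma adjusted p of 0.056. Libraries of the same number deviated from their group means with correlations of -0.466 to 0.184 over genes. For libraries of different numbers the correlations were -0.481 to 0.453. Both ranges are wide, so these values cannot decide whether the numbers pair libraries. Quantile normalization also ended the calls of Clec4d, Csf3r, Il1rn, Il6, Ly6c2, Nkg7, Sema4d and Tagln, and median rescaling those of H2-Q7 and Sema4d. Lum turned to a log2 change of 0.05 with median rescaling. The cause of these differences was not tested. With both DT-061 library 3 and vehicle library 4 left out, 8 of the 9 passed, Saa2 being the exception (limma adjusted p = 0.12). Depth limits Saa2, Saa4, Wfdc21, S100a8 and S100a9, which had 0 to 6 fragments in each DT-061 library. It also limits Saa3, which had, at the fewest, 4, 12 and 3 fragments in DT-061 libraries 1 to 3 and 43 in library 4.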
